A study of Homo sapiens with 6 samples.

Results

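The 9 genes described here encode chromatin regulators that are recurrently mutated in follicular lymphoma, a cancer of germinal centre B cells: KMT2D, KMT2C, CREBBP, EP300, EZH2, ARID1A, SMARCA4, TET2 and BCL7A. They were chosen by gene symbol and not by a limit on their counts, but with earlier results of these data known. All 9 had counts in both cell lines, among 13153 protein-coding genes with at least 1 count in DoHH-2 and 10148 in GM01953. The study mapped the RNA cross-linked to the translation initiation factor eIF4B by iCLIP, in which reverse transcription stops at the cross-linked nucleotide and each cDNA gives a position. DoHH-2 is a diffuse large B-cell lymphoma cell line (4 replicates) and GM01953 a control B-cell line (2 replicates). The lines are not isogenic, the labels name no treatment for either, and both were irradiated with 150 mJ/cm2 of UVC before immunoprecipitation with 10 µg of antibody to eIF4B. The deposited table of each line pools its replicates into 1 count per position, so no SD and no test between the lines could be had, and every interval given is a 95% interval for counting error only, as if each cDNA were an independent molecule.

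KMT2D and KMT2C are methyltransferases of histone H3 lysine 4 that act at enhancers within COMPASS complexes, and CREBBP and EP300 are the acetyltransferases that acetylate the same elements. EZH2 is the catalytic subunit of the repressive complex PRC2, SMARCA4 is an ATPase of the nucleosome remodelling complex BAF, to which ARID1A and BCL7A also belong, and TET2 oxidises methylated cytosine in DNA. Most of them carry loss-of-function mutations in follicular lymphoma, while EZH2 carries activating ones. eIF4B stimulates the helicase eIF4A, which unwinds the 5′ UTR during translation initiation.

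DoHH-2 held 2033156 counts at 1179243 positions and GM01953 held 167197 counts at 78474 positions, so that DoHH-2 was 12.2 times deeper. The B-cell markers MS4A1, CD79A, CD79B and PAX5 all had counts, 13 to 554 each in DoHH-2 and 7 to 152 each in GM01953, and none of the 8 markers of T, myeloid and erythroid cells was listed in either line. A count rises with the amount of an mRNA as well as with the binding of each molecule, and these cannot be told apart from these tables.

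The positions that carried most counts are shown first, as the 21 nt of the transcribed strand around the cross-linked nucleotide, which is in capitals. The coordinates are those of GRCh38, and the sequences were read from that genome. By a rule that took the 3 highest positions of each member and line with at least 5 counts, 29 positions were named, of which 10 lay in the CDS, 10 in introns, 7 in 3′ UTRs and 2 in 5′ UTRs. The 9 below, the highest of each member over both lines, are shown because several of them decide the values given later.
KMT2D, 3′ UTR, chr12:49019409-49019429, minus strand, 38 counts in GM01953: ttggttttttTtttaagtacc
BCL7A, 3′ UTR, chr12:122061911-122061931, plus strand, 21 counts in DoHH-2 and 15 in GM01953: cctttcaagaAtttttttttt
EZH2, intron 8, chr7:148826259-148826279, minus strand, 15 counts in DoHH-2: tttgcatgtaTttcatttgga
EP300, 5′ UTR, chr22:41092590-41092610, plus strand, 13 counts in DoHH-2: atgagaaggaGgaggacagcg
ARID1A, intron 1, chr1:26711511-26711531, plus strand, 12 counts in DoHH-2: ctattaataaTaccgtaacgt
SMARCA4, intron 29, chr19:11038465-11038485, plus strand, 11 counts in GM01953: atgctgcttcTttgacccggt
KMT2C, CDS in exon 36, chr7:152181375-152181395, minus strand, 9 counts in GM01953: tacagaccctTactctcaacc
TET2, CDS in exon 3, chr4:105234579-105234599, plus strand, 7 counts in GM01953: gtttctgcctCttccgtggaa
CREBBP, intron 11, chr16:3777537-3777557, minus strand, 5 counts in DoHH-2: tttcactgttTtttcctctcc

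Of the 29 positions, 18 had T at the cross-linked nucleotide and 5 had a run of 5 T within the 21 nt. Only 4 of the 29 had a count at the same nucleotide in the other line, and 17 had none there within 20 nt. The 17 included GM01953 positions of KMT2C, SMARCA4 and TET2, with 7 to 11 counts, that had none in the deeper DoHH-2. The reason was not tested. As DoHH-2 was 12.2 times deeper, few counts could be seen in GM01953 at most DoHH-2 positions. A lack of counts in GM01953, here and below, therefore does not show a difference between the lines. The CREBBP position, 66 nt from the nearest exon, was the only one of that gene that met the rule, and KMT2C had a further position with 9 counts in GM01953, in intron 15. All 29 lay in a sequence of 31 nt that occurs once in the genome.

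eIF4B was cross-linked to the mRNAs of all 9 regulators, at levels that differed 9.12-fold per kb of mRNA in DoHH-2 and 5.80-fold in GM01953. Whole-gene counts ranged from 122 (TET2) to 696 (ARID1A) in DoHH-2 and from 11 (EZH2) to 90 (KMT2D) in GM01953. A gene was called bound when its positions with a deposited FDR below 0.05, here called sites, held more than 20 counts. By this rule 8 of the 9 members were bound in DoHH-2, where 33.3% of all coding genes were, and 7 of the 9 in GM01953, where 8.34% were. The rule sums over the whole gene, and the coding genes were not matched to the members for length. By whole-gene counts the median member percentile was 96.8 in DoHH-2 and 95.8 in GM01953. Per kb of mRNA it was 86.1 and 78.2. TET2 was not bound in either line, as its sites held 17 counts in DoHH-2 and 20, exactly the limit, in GM01953. EZH2 was not bound in GM01953, where its sites held 4 counts. CREBBP with 21 and EP300 with 22 counts at sites in GM01953 were just above the limit, and KMT2D with 28 was the lowest bound member in DoHH-2.

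BCL7A, a small subunit of BAF, had the highest level per kb of mRNA in both lines. With mRNA counts scaled to CPM (counts-per-million, relative to all counts of the table) and divided by the mRNA length in kb, it reached 46.8 (42.0 to 51.9) in DoHH-2 and 61.1 (43.2 to 83.8) in GM01953. The other BAF members followed in DoHH-2, ARID1A at 34.0 (31.3 to 36.8) and SMARCA4 at 32.2 (29.0 to 35.7), and their intervals overlapped each other and that of EZH2 at 28.4 (24.04 to 33.2). EP300 stood at 25.9 (23.6 to 28.4) and its paralogue CREBBP at 16.3 (14.6 to 18.05), and these intervals did not overlap. KMT2C at 14.1 (12.9 to 15.4) overlapped CREBBP, and KMT2D at 11.5 (10.5 to 12.6) lay just below KMT2C. TET2 was lowest at 5.13 (4.17 to 6.24), close to the median of all coding genes of 4.79. The 9 members lay between the 51.55th and 92.4th percentile of coding genes per kb in DoHH-2 and between the 59.9th and 92nd in GM01953.

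In GM01953 the order was different in places. SMARCA4 at 42.9 (30.7 to 58.4) and ARID1A at 39.7 (30.04 to 51.4) again followed BCL7A. KMT2D came next at 25.5 (20.5 to 31.4), against 11.5 in DoHH-2. Of its 88 mRNA counts in GM01953, 49 lay at 2 neighbouring positions of the 3′ UTR that are described below. The interval of EZH2, at 22.5 (10.8 to 41.4), overlapped those of KMT2D and CREBBP. CREBBP was lowest at 10.5 (6.34 to 16.4), and its interval overlapped those of KMT2C at 15.25 (11.04 to 20.55), TET2 at 13.7 (8.60 to 20.8) and EP300 at 21.1 (14.35 to 29.98).

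The 9 members together held 2157 CPM in DoHH-2 against 2530 CPM in GM01953, which gave a DoHH-2 to GM01953 ratio of 0.853 (0.772 to 0.944). This direction was not stable. Without the highest position of each member in each line, an alternative chosen after seeing the data, the ratio was 1.08 (0.963 to 1.21). At sites alone it was 0.351 (0.310 to 0.399). With each position counted once it was 1.38 (1.19 to 1.61). Distinct positions need not rise in proportion to counts, and DoHH-2 was 12.2 times deeper. In a random draw of DoHH-2 counts down to the GM01953 total, the members held 347 of 131085 positions, against 180 of 78474 in GM01953. Among the 9416 coding genes with at least 20 counts over both lines the median ratio was 1.29, against 0.894 among the members. With all positions, no member reached a ratio of 2 in favour of DoHH-2, which 32.3% of these genes did. In favour of GM01953, 2 of the 9 reached it, which 14.2% did.

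Those 2 were TET2 and KMT2D. TET2, with 122 counts in DoHH-2 against 23 in GM01953, had a ratio of 0.436 (0.278 to 0.714). KMT2D, with 547 against 90, had a ratio of 0.4998 (0.399 to 0.632). Both rested on few positions in GM01953, and without the highest position in each line the ratios were 0.601 (0.355 to 1.09) for TET2 and 0.859 (0.645 to 1.16) for KMT2D, with intervals that covered 1. EZH2 was the one member with an interval above 1, at 1.93 (1.06 to 3.91) from 258 counts against 11, but in exons alone it had 153 and 10 counts and a ratio of 1.26 (0.666 to 2.68). For the other 6 members the interval covered 1, from SMARCA4 at 0.786 (0.605 to 1.04) to CREBBP at 1.23 (0.850 to 1.85). These intervals did not hold in every setting. At sites alone, KMT2C at 0.182 (0.126 to 0.264), SMARCA4 at 0.408 (0.297 to 0.571), ARID1A at 0.485 (0.355 to 0.675), CREBBP at 0.509 (0.316 to 0.857) and BCL7A at 0.5105 (0.362 to 0.7365) had intervals below 1, and KMT2D was at 0.0431 (0.0267 to 0.0679) and TET2 at 0.089 (0.0438 to 0.179). With each position counted once, KMT2C at 1.61 (1.09 to 2.48) and BCL7A at 1.70 (1.02 to 3.07) had intervals above 1, and those of the other 7 members, EZH2 and TET2 among them, covered 1. These ratios of distinct positions also depend on the depth of each line.

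The members' counts were stacked on fewer positions in GM01953. There 423 counts lay at 180 positions, a mean of 1.22 (EZH2) to 3.75 (KMT2D) counts per position, against 1.08 (KMT2C) to 1.28 (BCL7A) in DoHH-2. In GM01953 57.8% of the member positions held 1 count, and in DoHH-2 88.9% did. Over the whole tables these shares were 60.8% and 83.9%. What part this had in the ratios was not tested.

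Positions were placed on the MANE Select transcript of each member, the reference transcript of the gene in GENCODE, and divided into 5′ UTR, start codon region (50 nt to each side), CDS, stop codon region (50 nt to each side) and 3′ UTR. eIF4B counts on these mRNAs lay mainly in the CDS, which held 2211 of 3352 mRNA counts in DoHH-2, or 66.0% (64.3 to 67.5), and 228 of 348 in GM01953, or 65.5% (60.4 to 70.3). The CDS makes up 75.3% of their length. The 3′ UTR held 28.3% (26.8 to 29.9) in DoHH-2 and 28.7% (24.2 to 33.7) in GM01953, against 18.7% of the length. In GM01953 this 3′ UTR share fell to 17.5% (13.5 to 22.5) without the highest position of each member. The 5′ end, meaning the 5′ UTR and the start codon region, held 4.09% (3.47 to 4.81) in DoHH-2 and 5.17% (3.30 to 8.03) in GM01953, against 4.96% of the length.

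All coding genes together placed 16.4% of their mRNA counts at the 5′ end in DoHH-2 and 23.8% in GM01953. Coding genes with an mRNA of at least 5000 nt, a length that 7 of the 9 members exceed, placed 9.85% and 18.99% there. They placed 50.4% and 54.1% in the CDS and 37.4% and 24.65% in the 3′ UTR. The CDS made up 40.8% and 40.3% of their length and the 3′ UTR 53.7% and 54.25%. Relative to length, their CDS held 1.235 and 1.34 times an even share, against 0.876 and 0.87 in the members. These values pool the counts and lengths of each set. Taken gene by gene in DoHH-2, the median was 0.944 in the members and 0.961 in coding genes with at least 50 mRNA counts. In GM01953 these medians were 1.07 and 0.759, the other way round from the pooled values. The pooled 3′ UTR of the coding genes of at least 5000 nt held 0.697 and 0.4545 times an even share, against 1.52 and 1.54 in the members. KMT2D alone held 50 of the 100 member counts there in GM01953. Gene by gene, the member median was 1.58 in DoHH-2 and 0.809 in GM01953. In coding genes with at least 50 mRNA counts it was 0.824 and 0.491. Relative to its length, the 3′ UTR held more than an even share of counts in 8 of the 9 members in DoHH-2, all but TET2, as it did in 34.7% of the 5146 coding genes with at least 50 mRNA counts. In CREBBP, 1 of the 8, the share of 24.9% (20.7 to 29.7) had an interval that covered the 24.2% of the length. In GM01953 it did so in 3 of the 9 (KMT2D, BCL7A and, with 1 of 10 counts, EZH2) and in 20% of 210 coding genes with at least 50 mRNA counts, a number that among the members only KMT2D and ARID1A reached there.

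KMT2D and KMT2C, the longest mRNAs of the group at 20635 and 16860 nt, had no count in the 5′ UTR upstream of the start codon region in either line. Of the coding genes with at least 100 mRNA counts in DoHH-2 and at least 150 nt of this region, 4.98% had none, and of the 8 members in that set these were the only 2. In KMT2D, 0 of 484 mRNA counts lay at the 5′ end in DoHH-2, which allows a share of up to 0.620% when a count of 0 is taken to allow 3 counts, whereas counts spread evenly by length would put 29.8 there. Its first DoHH-2 position lay at nt 1567 of the mRNA, within the CDS, which starts after a 5′ UTR of 1219 nt. In GM01953, 0 of its 88 mRNA counts lay at the 5′ end, which allows up to 3.41% by the same limit. For KMT2C, whose 5′ UTR has 217 nt, even spreading would put only 4.78 of 483 counts upstream of the start codon region.

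KMT2D counts in DoHH-2 were spread thinly, with 367 of 484 mRNA counts in the CDS and at most 4 at any position of the gene. Exon 55, the last and longest, held 120 of them, or 24.8% (21.1 to 28.8) on 14.0% of the length. In GM01953, by contrast, 49 of the 50 3′ UTR counts lay at 2 positions 18 nt apart, 38 at chr12:49019419 and 11 at chr12:49019401, at 441 and 423 nt from the end of the mRNA. DoHH-2 had 0 counts at the first of these, 1 at the second and 5 within 20 nt of the first, out of 116 in the 3′ UTR. The tables do not show whether the counts stacked on these positions came from separate molecules, and this was not tested. An annotated gene with only an Ensembl identifier, ENSG00000288710, overlaps both positions on the same strand, and the tables assigned neither position to it. The third GM01953 position of KMT2D, with 10 counts, lay in the CDS in exon 11, where DoHH-2 had 1 count within 5 nt.

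KMT2C carried 398 of 483 mRNA counts in the CDS in DoHH-2 and 39 of 43 in GM01953. When the coding sequence was cut into 10 equal parts, part 5 held 19 of the 39 coding counts in GM01953, among them the 9 counts shown above and 7 at a second position of exon 36. In DoHH-2 that part held 56 of 400 coding counts, and part 6 was the highest with 69. At neither GM01953 nucleotide did DoHH-2 have a count, although it had 2 within 5 nt of the first. Introns held 194 of 677 KMT2C counts in DoHH-2, or 28.7% (25.4 to 32.2).

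**Figure D1:**
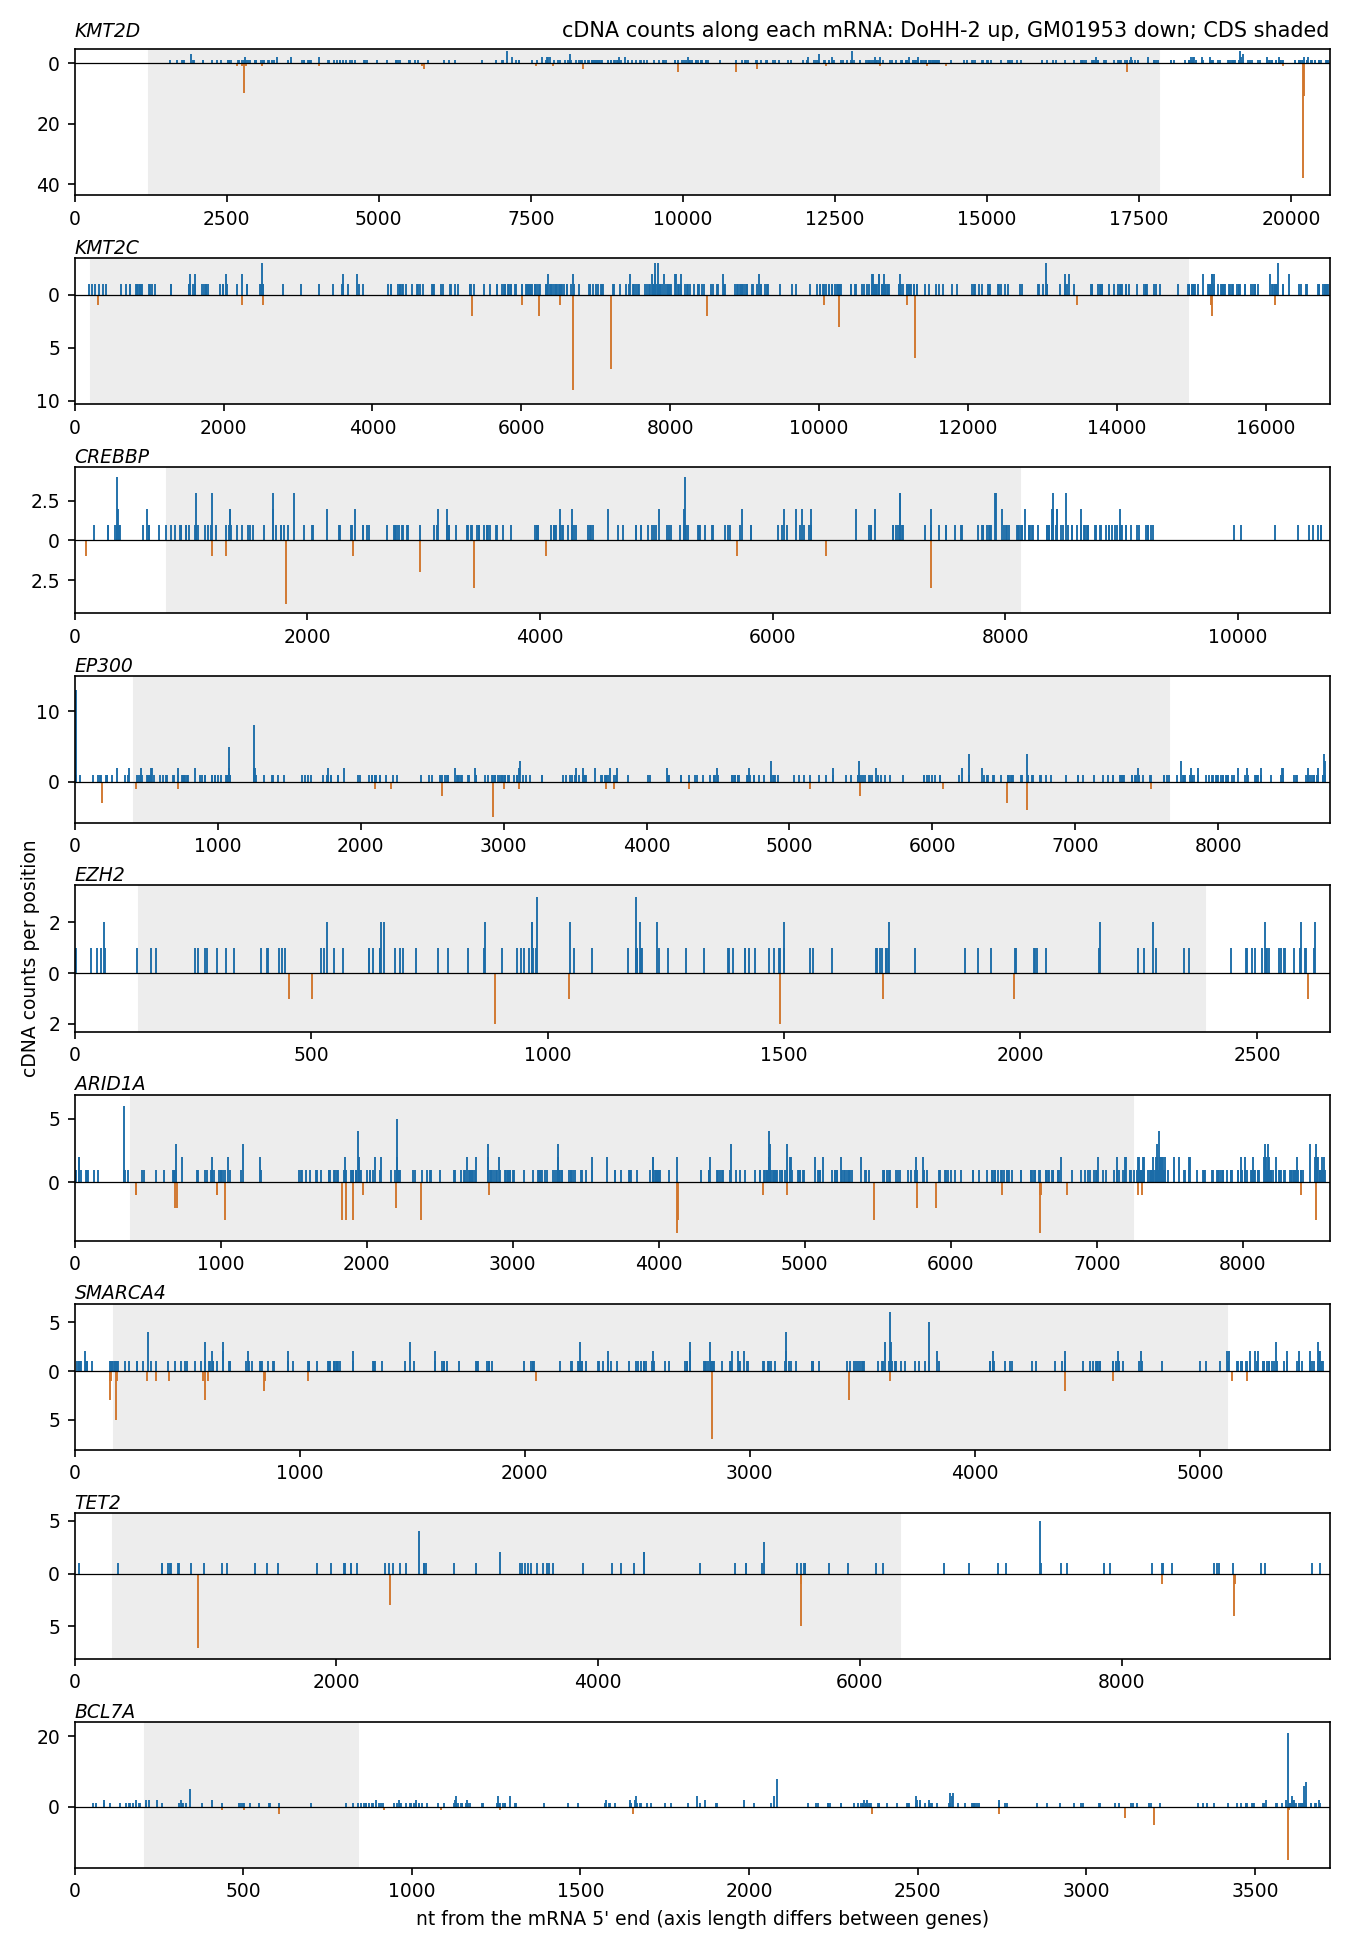
cDNA counts at each position along the mRNA of each regulator, with DoHH-2 upwards and GM01953 downwards, in nt from the 5′ end, and the CDS shaded. Axis lengths differ between genes. The 5′ UTR of KMT2D is empty in both lines, CREBBP counts become sparse in the distal 3′ UTR, and single GM01953 positions stand out in the KMT2D and BCL7A 3′ UTRs.

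CREBBP and EP300 share a domain structure and a long last exon, and both had counts spread over most exons, 29 of 31 in each in DoHH-2. The last exon held 162 of 357 mRNA counts in CREBBP, or 45.4% (40.3 to 50.6) on 44.7% of the length, and 182 of 462 in EP300, or 39.4% (35.0 to 43.9) on 37.65% of the length. They differed along the 3′ UTR. Of the 94 DoHH-2 counts in the 3′ UTR of CREBBP (2664 nt), 85 lay between the stop codon and the midpoint and 9 beyond it, a proximal share of 90.4% (82.8 to 94.9). In EP300 (1121 nt) these were 43 and 46, or 48.3% (38.2 to 58.6). Among 1934 coding genes with at least 50 such counts the middle 50% of proximal shares ran from 50% to 82.9%, and CREBBP lay above that range. In GM01953 neither gene had a count after the stop codon, out of 19 mRNA counts in CREBBP and 31 in EP300.

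EP300 also had the highest 5′ position of the group. Its 13 counts in DoHH-2 lay at the 9th nt of the mRNA, in the purine-rich sequence shown above, and GM01953 had none within 20 nt. The 5′ UTR held 27 of 462 EP300 mRNA counts, or 5.84% (4.05 to 8.37), against 4.135% of the length. Other EP300 positions with many counts in DoHH-2 were chr22:41125975 in the CDS (exon 3, 8 counts) and chr22:41153931 in intron 16 (10 counts). At the highest EP300 position in GM01953, in exon 14 with 5 counts, DoHH-2 had 1.

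EZH2, the shortest mRNA at 2654 nt, had 117 of 153 mRNA counts in the CDS in DoHH-2 and 9 of 10 in GM01953. Introns held 105 of its 258 DoHH-2 counts, or 40.7% (34.9 to 46.8), the highest share in the group, and 15 of them lay at the intron 8 position shown above, 185 nt from the nearest exon. In GM01953 introns held 1 of 11 counts, and no count lay within 20 nt of that position.

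ARID1A had the most counts in DoHH-2. Its 3′ UTR held 173 of 594 mRNA counts, or 29.1% (25.6 to 32.9) on 15.1% of the length, and its last exon, number 20, 46.8% (42.8 to 50.8) on 35.9%. A position with 6 counts lay 51 nt upstream of the start codon, in the G-rich 5′ UTR sequence gggaggggggGagaagacgaa at chr1:26696343-26696363 on the plus strand. GM01953 had no count within 20 nt of it. The intron 1 position shown above, 13981 nt from the nearest exon, held 12 of the 102 intron counts of the gene in DoHH-2.

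SMARCA4 had 237 of 602 counts in introns in DoHH-2, or 39.4% (35.5 to 43.3), and 23 of 63 in GM01953, or 36.5% (25.7 to 48.9). Over all coding genes the intron share was 21.1% and 22.8%, and over those with an mRNA of at least 5000 nt, as SMARCA4 has, 28.5% and 32.5%, the second of which lies within the GM01953 interval of SMARCA4. All 9 members together had 23.6% (22.3 to 24.85) of their counts in introns in DoHH-2 and 17.7% (14.4 to 21.7) in GM01953. Intron 29 held the highest position in both lines, but not at the same nucleotide, with 9 counts at chr19:11038211 in DoHH-2 and 11 at chr19:11038475 in GM01953, and neither had a count in the other line within 20 nt. A further GM01953 position counted as intron 25, chr19:11031962 with 8 counts, lies in an exon of other annotated SMARCA4 coding transcripts. The start codon region held 11 of 40 mRNA counts in GM01953, or 27.5% (16.1 to 42.8), and 13 of 365 in DoHH-2, or 3.56% (2.09 to 6.00), on 1.85% of the length. The last exon (490 nt) held 17.8% (14.2 to 22.1) of mRNA counts in DoHH-2 on 8.79% of the length.

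BCL7A was the one member whose mRNA counts lay mostly in the 3′ UTR in both lines, with 296 of 354 mRNA counts in DoHH-2, or 83.6% (79.4 to 87.1), and 33 of 38 in GM01953, or 86.8% (72.7 to 94.2). The 3′ UTR makes up 76.1% of this mRNA. Both lines had their highest position at the same nucleotide, 123 nt from the end of the mRNA and directly upstream of a run of T. It held 21 of 489 BCL7A counts in DoHH-2 and 15 of 45 in GM01953. A second group of positions 30 to 70 nt downstream held 26 counts at 14 positions in DoHH-2 and none in GM01953, where the lower depth leaves few counts to be seen. At the next position of BCL7A in GM01953, in intron 1 with 7 counts, DoHH-2 had 1 count.

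TET2 had few counts, 100 on the mRNA in DoHH-2 and 22 in GM01953. In DoHH-2, 72 lay in the CDS, or 72.0% (62.5 to 79.9) on 61.6% of the length, and 26 in the 3′ UTR, or 26.0% (18.4 to 35.4) on 33.7%. Its highest DoHH-2 position, with 5 counts, lay 1074 nt after the stop codon, and GM01953 had none within 20 nt. In GM01953, exons 3 and 11 held all 22 mRNA counts, and 7 and 5 of them lay at chr4:105234589 and chr4:105275765.

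Over all members, 36 of the 180 GM01953 positions, or 20%, were also DoHH-2 positions, 98 had one within 5 nt and 142 within 20 nt. BCL7A shared the most, 6 of 15 at the same nucleotide and 15 of 15 within 20 nt, and EZH2 and KMT2C the smallest shares at the same nucleotide, 1 of 9 and 3 of 26. For coding genes with 122 to 696 DoHH-2 counts, the range of the members, 32.1% of GM01953 positions were also DoHH-2 positions and 77.2% had one within 20 nt, against 78.9% for the members.

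The cross-linked nucleotide was U at 40.5% of 2820 mRNA positions of the members in DoHH-2 and at 40.4% of 151 in GM01953, against 21.7% U in their mRNAs. The next nucleotide was U at 42.3% and 41.7%, and G at only 9.22% and 8.61%, against 25% G. The same was seen over all coding genes, with 41.2% and 38.4% U at the position itself. A run of 5 T (TTTTT, searched on the transcribed strand only) was found in the 21 nt around 7.74% of member positions in DoHH-2 and 3.97% (6 of 151) in GM01953, and in 2.71% of all 21-nt windows of these mRNAs. The share in DoHH-2 ran from 1.003% in SMARCA4 to 15.9% in BCL7A.

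The GC content of the 31 nt around DoHH-2 positions was below that of the whole mRNA in all 9 members, with differences from -1.115 (KMT2C) to -6.06 (BCL7A) percentage points, as it was in 61.4% of 9366 coding genes. KMT2D windows had 54.2% GC in an mRNA of 59.8%. In GM01953 the windows were below the mRNA in 3 members and above it in 6, and below it in 40.1% of 3108 coding genes. CREBBP, EP300, KMT2D and ARID1A encode long glutamine-rich stretches, and 8.20% to 11.5% of their codons are glutamine codons (CAG or CAA). In DoHH-2, 115 of 1955 coding positions of the 9 members lay in such codons, or 5.88% (4.92 to 7.01), against 8.51% of their codons. The ratio of these, 0.691, was near that of all coding genes, 0.609. Codons without U, which include both glutamine codons, held 655 of the 1955 positions, or 33.5% (31.45 to 35.6), against 54.2% of the codons.

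Partners of the members in their complexes and pathways were taken from 5 lists of 61 genes. Of the 60 with counts, DoHH-2 had 40 bound (66.7%, against 33.3% of all coding genes) and GM01953 10 (16.7%, against 8.34%). The remaining gene, SMARCD3, had no count listed in either line. Among the 58 with at least 20 counts, 16 had a ratio of at least 2 towards DoHH-2 (27.6%) and 6 towards GM01953 (10.3%), against the 32.3% and 14.2% of coding genes given above.

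Of the 13 COMPASS genes, DoHH-2 had 9 bound (69.2%, against 33.3% of all coding genes). GM01953 had 0 of the 13, where the share of all coding genes was 8.34%. The limit is a fixed count and GM01953 was shallower. The numbers bound, here and in the lists below, therefore do not show a difference between the lines. DPY30 at 3.27 (1.25 to 12.1) and MEN1 at 0.262 (0.130 to 0.571) passed a ratio of 2 in opposite directions. KMT2A and KMT2B, paralogues of the H3K4 methyltransferases above, had 415 and 210 counts in DoHH-2 and 22 each in GM01953. Their ratios were 1.55 (1.01 to 2.50) and 0.785 (0.505 to 1.28). In CPM per kb of mRNA, KMT2A stood at 10.96 and KMT2B at 9.68 in DoHH-2, near KMT2D and KMT2C.

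In the PRC2 list, DoHH-2 had 5 of 9 bound and GM01953 1, SUZ12. The histone-binding subunits RBBP4 and RBBP7 each had a ratio of 2.12, and EED, which binds methylated H3, had 0.384 (0.203 to 0.787). EZH1, the paralogue of EZH2, had 62 counts in DoHH-2 against 10 in GM01953 and stood at 4.25 CPM per kb in DoHH-2, against 28.4 for EZH2.

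Of 20 BAF genes, DoHH-2 had 16 bound and GM01953 5. SMARCC1, a core scaffold subunit, had 1187 counts against 46 and a ratio of 2.12 (1.58 to 2.92). The other genes above 2 were ARID2, SMARCE1 and BCL11A, and 3 with at most 3 counts in GM01953, namely SS18 at 2.80 (0.9301 to 13.8), BRD7 at 4.81 (1.30 to 40.2) and BRD9 at 15.5 (4.26 to 128.5). ACTB, which is also cytoplasmic actin, had 6467 and 1074 counts and a ratio of 0.495 (0.464 to 0.529). SMARCA2, the alternative ATPase of the complex, had 141 and 47 counts and a ratio of 0.247 (0.176 to 0.351), and the interval of SMARCA4 lay above this. ARID1B, paralogue of ARID1A, had 470 and 41 counts and a ratio of 0.943 (0.684 to 1.33), next to 0.938 for ARID1A. BCL7B had 73 and 10 counts and BCL7C 12 and 5, far below BCL7A.

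In the acetylation list DoHH-2 had 6 of 10 bound and GM01953 3, among them the corepressor NCOR1 and the repressor BCL6, which CREBBP acetylates. HDAC1 at 2.01 (1.04 to 4.46) and HDAC2 at 2.17 (1.43 to 3.45), deacetylases that oppose CREBBP and EP300, and KAT2A at 5.84 (1.015 to 233.8, on 1 GM01953 count) were above 2, and KAT2B at 0.350 (0.114 to 1.43) was below 0.5. In the DNA methylation list DoHH-2 had 4 of 8 bound and GM01953 1, the maintenance methyltransferase DNMT1. UHRF1 at 3.145, IDH1 at 2.30 and DNMT3B at 3.82 (1.03 to 32.04, on 2 GM01953 counts) were above 2, and IDH2 was at 0.340 (0.227 to 0.525). TET3 had 148 and 21 counts, close to TET2, and TET1 had 4 and 6.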

How the data were processed

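eIF4B iCLIP was performed on DoHH-2 (4 replicates) and GM01953 (2 replicates). The authors removed PCR duplicates with BBMap and demultiplexed with Je, and the submitters' processing notes name HISAT2 and GRCh38 for the alignment. Cross-link positions were called with iCount after the replicates of a line had been combined. The deposited counts are whole cDNA counts per position, not normalized, and the deposited FDR, a p-value adjusted by the authors' peak calling in iCount, marks positions within a gene. Versions and annotation release are not given in the sources used here. Positions in the tables were taken to count from 0 and were moved by 1, since they fell off after the last base of genes on that reading.

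Counts were summed by gene symbol over unique positions (pandas 2.3.3) and expressed relative to the total of the table (CPM). Positions were placed on MANE Select transcripts of GENCODE release 44. Shares have Wilson intervals, counts exact Poisson intervals, and ratios exact Clopper-Pearson intervals (scipy 1.17.1), all 95% and for counting error only. With 1 pooled value per line, no test was made. Scripts were tested on simulated data. Members and lists were chosen with earlier results of these data known. Named were all 9 members, their 3 highest positions per line with at least 5 counts, paralogues of members, and partners past a ratio of 2 or bound in GM01953 (the latter chosen after their values were seen). Some genes of the lists are not reported here by name.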

Additional observations from a re-analysis of the deposited data

How the results depend on the processing

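The number of bound members stayed within 1.5 times its value under all other FDR and count limits tried, except that with more than 50 counts 1 of 9 was bound in GM01953. The summed ratio of DoHH-2 to GM01953 was 0.825 and 0.786 with coding denominators, 0.351 at sites only, and it turned to 1.38 with each position counted once and to 1.08 without the highest position of each member (chosen after seeing the data). With each position counted once, the ratio also passed to the other side of 1 for KMT2D (1.38), KMT2C (1.61), BCL7A (1.70), SMARCA4 (1.235) and ARID1A (1.153), while at sites only that of KMT2D fell to 0.0431. Ratios with each position counted once also depend on the depth of each line. With sites only, the DoHH-2 shares became 11.9% for introns (23.6% with all positions), 6.30% for the 5′ end, 48.8% for the CDS and 43.9% for the 3′ UTR. With each position counted once, the CDS share was 67.9% in DoHH-2 and 76.2% in GM01953 and the 3′ UTR share 26.7% and 15.9%. Without the member with the most counts, the intron share was 25.3% in DoHH-2 (without ARID1A) and 21.9% in GM01953 (without KMT2D, 17.7% with all members), and in GM01953 the CDS share was 73.1% and the 3′ UTR share 19.2%. Without the highest position of each member, these GM01953 shares were 75% and 17.5%. The cause was not tested. Of 83 alternatives for the comparisons, 65 gave a value near the reported one, meaning within 1.5 times for a number of bound members and within the 95% interval of the reported value for a ratio or share. All those with the longest coding transcript, unshared positions, unique sequence (also chosen after seeing the data) or 25-nt codon regions were among them. No paired analysis was possible because the deposited tables pool the replicates, and for the same reason no replicate could be left out. The depth of GM01953, with 10 to 88 mRNA counts per member, limits the precision of its values.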
